A study of Mus musculus with 12 samples.

Results

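The genes described here encode the proteins of the cytosolic ribosome, together with a few close relatives of those proteins. They were chosen by symbol: names beginning with Rpl or Rps and a number, and Rplp0, Rplp1, Rplp2 and Rpsa, leaving out the Rps6k kinases, pseudogenes and retrotransposed copies, with a mean of at least 1 TPM over the 6 distinct libraries. The unit, TPM, expresses each gene as its portion of all transcripts in the library, corrected for the length of the transcript. The choice gave 83 genes of 21936 listed, and all 83 were among the 11056 genes tested. They comprised 46 proteins of the large subunit, 31 of the small subunit, 5 paralogs of such proteins (Rpl3l, Rpl7l1, Rpl22l1, Rpl36al and Rps27l) and Rps19bp1, which encodes a protein that binds Rps19 and is not itself a ribosomal protein. Every one of the 83 stood at 1 TPM or more in all 6 libraries, so none entered the test through a single group.

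The series sequenced polyadenylated RNA of skeletal muscle from C57BL/6N mice aged 3 months, either wild type or lacking PTRF, the caveolar coat protein cavin 1 encoded by Cavin1. The labels name soleus and quadriceps, with 3 samples for each muscle and genotype, 12 in all. Soleus and quadriceps samples of equal genotype and number held identical values (largest difference 0 TPM), so there were 6 distinct libraries, 3 wild type and 3 knockout, and the muscle they came from is unknown. The labels do not state how the knockout allele was made, in which cells it acts, or that the numbered samples were separate animals, and p-values then reflect no more than the spread among these samples, which may be technical. Cavin1 was at 40.0 to 45.2 TPM in wild type, against 0.0254 to 0.284 TPM in knockout. Library totals were 843194 to 872482 TPM, with an unknown sequencing depth. Mitochondrially encoded transcripts took 52.3, 51.1 and 43.0% of all TPM in wild-type libraries 1, 2 and 3 and 39.0, 45.7 and 42.2% in knockout libraries 1, 2 and 3, so that the room left for nuclear transcripts differed between libraries.

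The cytosolic ribosome reads messenger RNA in its small subunit and joins amino acids in its large subunit, and nearly all of its proteins are present in 1 copy per ribosome. Their messages carry a run of pyrimidines (C and T) at the 5′ end, the terminal oligopyrimidine or TOP motif, through which mTORC1 and the RNA-binding protein LARP1 control their translation together. In heart and skeletal muscle, Rpl3l, a muscle-restricted paralog, takes the place of Rpl3 in most ribosomes, and Rpl3 is known to return when muscle grows or is injured.

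The 40 bases around the annotated start of 8 of these genes, picked after their values were seen, are shown because the pyrimidine run that the family is known for lies there. They run from 30 bases before the start to 10 after it, are taken from RefSeq (GRCm38.p6), and have in capitals the longest run of C and T within 10 bases on either side of the start. The first 4 genes stood off from the family in the comparison below (Rpl3 is not printed), and the last 4 lay closer to it. Of these last 4, Rpl13a (log2 fold change 0.79) and Rps27 (0.67) were still above the upper quartile of the family, 0.58. Rplp2 (0.51) and Rps6 (0.57) were below that quartile.

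Rpl3l, chr17:24727796-24727835, plus strand: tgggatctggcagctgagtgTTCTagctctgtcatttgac
Rpl10, chrX:74270786-74270825, plus strand: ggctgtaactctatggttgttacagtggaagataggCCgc
Rpl12, chr2:32961682-32961721, plus strand: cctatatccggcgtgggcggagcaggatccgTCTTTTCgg
Rps13, chr7:116334181-116334220, minus strand: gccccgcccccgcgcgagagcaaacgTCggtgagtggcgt
Rpl13a, chr7:45128736-45128775, minus strand: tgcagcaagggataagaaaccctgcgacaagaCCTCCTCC
Rps27, chr3:90213639-90213678, minus strand: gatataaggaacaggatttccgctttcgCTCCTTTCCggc
Rplp2, chr7:141447621-141447660, plus strand: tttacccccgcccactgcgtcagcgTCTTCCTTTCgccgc
Rps6, chr4:86857358-86857397, minus strand: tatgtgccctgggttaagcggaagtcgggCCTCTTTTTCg

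The run was 8 bases in Rpl13a, 9 in Rps27 and 10 in Rplp2 and Rps6, against 4 in Rpl3l, 2 in Rps13, 2 in Rpl10 and 7 in Rpl12. An annotated start can lie some bases from the true one, which moves a run in or out of this window. Of the 83 genes, 63 were found in the promoter table, with 75 start windows. A run of at least 6 pyrimidines within 10 bases of the start was present in 42.7% of those windows, against 20.2% of all 32851 windows in the table, and a run of at least 8 in 28.0% against 7.43%. The longest run had a median of 4 bases in the windows of these genes and also in all windows. The printed runs of 8 to 10 bases are thus longer than most in the family, and a short run is not particular to the genes that stood off. Over the longer window from 250 bases before to 50 after the start, searched on both strands, CCGGAAG, the core of sites for ETS factors, was present in 34.7% of the windows of these genes and 8.86% of all windows. AAGATGG, the core of sites for YY1, was present in 16.0% against 6.34%. The muscle E-box CAGCTG was present in 4.0% against 16.3%, and the MEF2 pattern, CTA and TAG with 4 bases of any kind between them, in 0% against 3.69%. None of these motifs contains another. Rpl3l was 1 of the 3 windows with CAGCTG, and its match lies in the sequence printed above.

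Ribosomal protein messages were abundant in every library. Of the 83 genes, 76 had a mean of 100 TPM or more over the 6 libraries, and 3 were above 1000 TPM: Rpl13a (mean 1227 TPM), a large-subunit protein also known as a translational repressor in inflammation, Rps27 (1121 TPM), a zinc-finger protein of the small subunit, and Rplp1 (1030 TPM), an acidic protein of the stalk. Rps29 (898 TPM) and Rps24 (862 TPM), both of the small subunit, came next, and the ranges of these 5 over the 6 libraries overlapped. At the other end, Rpl12, which sits at the base of the stalk, was listed at a mean of 8.64 TPM and Rps19bp1 at 8.92 TPM, the lowest of those included. Rpl39l (0.268 TPM), Rps23rg1 (0.0471 TPM) and Rpl10l (0.0386 TPM) fell below the mean of 1 TPM and are not counted. Of the 31-base words in the transcripts of Rpl12, 49.8% also occur in transcripts of other genes, and how reads of such shared stretches were assigned is not given in the sources used here. The genes are spread over the genome, with the most on chromosome 7 (14 genes), chromosome 17 (8), and chromosomes 9 and 11 (7 each).

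The comparison asked how this family differed between knockout and wild-type muscle. The 83 genes together held 23098, 24947 and 31501 TPM in wild-type libraries 1, 2 and 3, against 42452, 31829 and 37676 TPM in the knockout. The knockout libraries were all above the wild-type ones, but knockout library 2 exceeded wild-type library 3 by little. The mean was 26515 ± 4416 TPM in wild type, against 37319 ± 5321 TPM in knockout (SD, n = 3 each), a ratio of 1.41. As a share of nuclear transcripts alone, which takes the mitochondrial transcripts out of the denominator, the family held 5.70, 6.05 and 6.51% in wild type and 8.02, 6.91 and 7.47% in knockout, a ratio of 1.23 between the means of 6.09 ± 0.405% and 7.47 ± 0.556% (SD, n = 3 each). The difference was smaller on the nuclear scale, with the groups still apart. In bulk tissue, more cells of a kind that is rich in ribosomes and more of these messages per cell cannot be told apart.

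**Figure D1:**
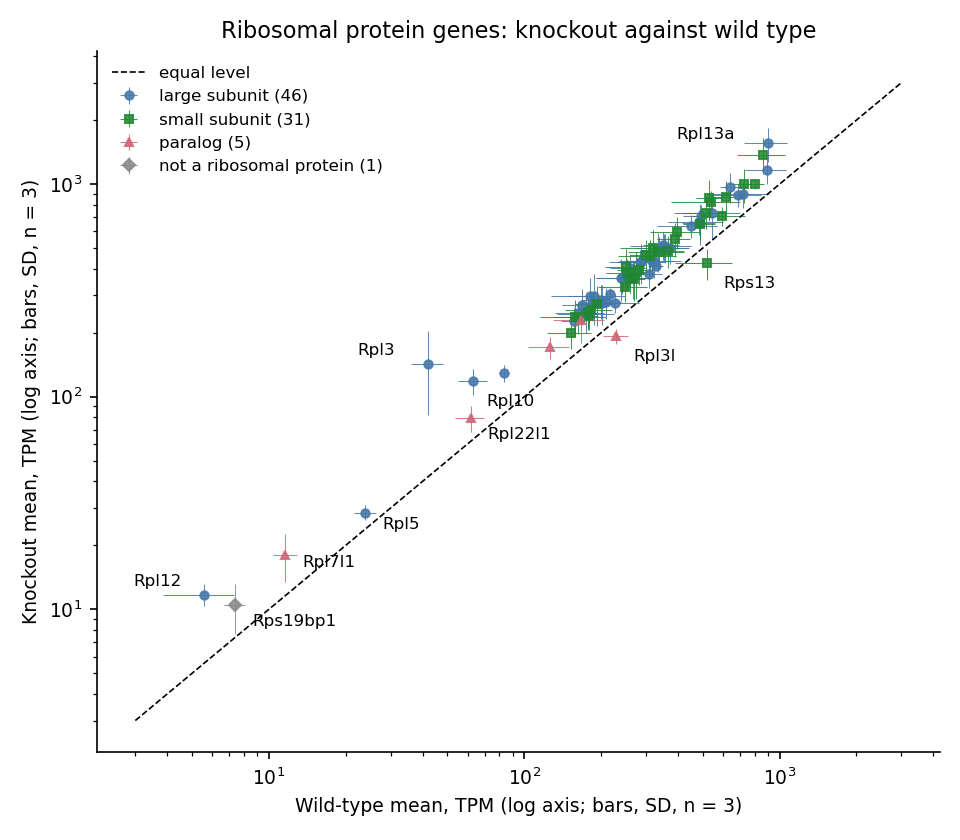
Mean TPM of each gene in knockout (vertical axis) against wild type (horizontal axis), both on log axes, with SD over 3 libraries as bars and the subunit of the protein as the symbol. Of the 83 points, 81 lie above the dashed line of equal level, Rps13 and Rpl3l lie below it, and Rpl3, Rpl10 and Rpl12 lie farthest above the others.

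Most of the genes differed by similar amounts. The knockout mean was above the wild-type mean for 81 of 83 genes, and the median log2 fold change, on the log2(TPM + 1) scale as all fold changes below, was 0.50 with an interquartile range of 0.16. Over all 11056 genes tested the median was 0.33 with an interquartile range of 0.44, and over the 595 other genes with a mean of 100 TPM or more it was 0.07. The median was 0.52 for the large subunit and 0.50 for the small subunit. Across the 83 genes, which share their libraries and are not independent, the rank correlation (Spearman rho) of fold change with level was -0.07.

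In the test across all genes (limma, Benjamini-Hochberg adjusted p under 0.05), 45 of the 83 genes were higher in the knockout, none was lower and 38 did not pass. The background was large, since 36.3% of all genes tested were higher and 2.92% lower, so that the share of these genes called higher, 54.2%, is to be read against it. At an unadjusted p under 0.05 the number was 71, where 50.6% of all genes passed in either direction. Higher calls were made for 27 of 46 large-subunit genes, 17 of 31 small-subunit genes and 1 of 5 paralogs. Values of the groups did not overlap, with knockout above, for 43 of the 83 genes, where 48.7% of all genes did so, and with knockout below for Rpl3l alone, where 4.83% did so. The share of non-overlapping genes was thus near the background.

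The libraries differed among themselves in the same order for most of the family. Knockout library 1 held the highest of the 6 values for 69 genes, knockout library 2 the lowest knockout value for 70, and wild-type library 3 the highest wild-type value for 77, while wild-type library 1 held the lowest of the 6 for 55. Knockout library 2 was above wild-type library 3 for 48 of the 83. The count of higher genes followed the libraries used: it was 69 without wild-type library 3 (37.8% of all genes were higher in that fit) and 63 when knockout library 2 was left out (38.8% of all genes). Omitting wild-type library 1 gave 6 (24.5% of all genes), omitting wild-type library 2 gave 6 (23.0%), omitting knockout library 1 gave 8 (22.5%) and omitting knockout library 3 gave 14 (23.7%). In these last 4 fits the share of the 83 genes called higher, 7.23 to 16.9%, was below that of all genes, and in the first pair it was above. It also followed the scale. After trimmed-mean rescaling, which sets the bulk of genes equal between libraries and moved the median of all genes tested from 0.33 to -0.04, the median of the 83 genes was 0.08, 3 were higher and 2 lower, against 13.4% and 15.4% of all genes. On the nuclear scale the median was 0.30 against 0.16 for all genes, and 22 were higher and 2 lower, against 23.9% and 6.89%. Quantile normalization gave 35 higher and 1 lower (12.4% and 13.1% of all genes), and with no filter on low values 17 were higher and 0 lower (19.8% and 1.58%). When each library was set to the median of the ribosomal protein genes themselves, 3 were higher and 2 lower, where 9.57% and 19.6% of all genes were. After trimmed-mean rescaling the groups did not overlap for 5 genes with knockout above and 3 with knockout below, where 19.4% and 24.9% of all genes did so.

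**Figure D2:**
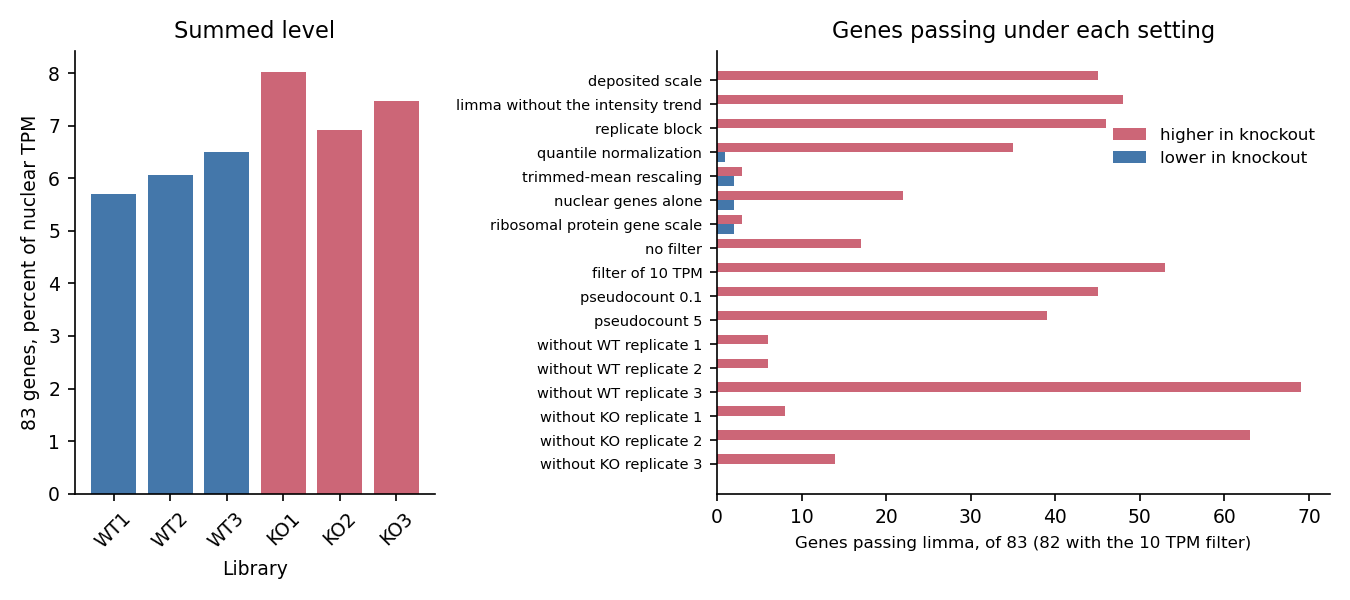
Left, the summed TPM of the 83 genes as a percentage of nuclear TPM in each library; right, the number of the 83 genes that passed limma as higher or lower in knockout under each setting. The 3 knockout libraries stand at 6.91 to 8.02% and the wild-type ones at 5.70 to 6.51%, and the number higher runs from 3 to 69 over the settings drawn, which leave out the limit on the fold.

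The large-subunit genes Rpl3, Rpl12 and Rpl10 passed as higher in each of the 16 alternative fits (without a limit on the fold). Of these, the fit with a filter of 10 TPM held Rpl12 only through its knockout values and is no support for it. Rpl3, a protein that reaches toward the peptidyl transferase centre (chr15:80077791-80091868, minus strand, GRCm38), had wild-type levels of 35.6, 43.1 and 47.6 TPM and knockout levels of 209, 88.7 and 131 TPM, in libraries 1, 2 and 3 of each group, the order used for every gene below. All knockout values were above all wild-type values, and knockout library 1 was the highest. The mean rose from 42.1 ± 6.10 to 143 ± 61.0 TPM (SD, n = 3 each), a log2 fold change of 1.66 (SE, the standard error, 0.26; limma, adjusted p = 0.000519), and it was the only one of the 83 to pass with a log2 fold change of at least 1, where 7.79% of all genes did so. After trimmed-mean rescaling its log2 fold change was 1.24 (limma, adjusted p = 0.00457). The adjusted p was at most 0.0134 over the 16 alternatives. Of its 31-base words, 69.7% recur in other annotated genes, but none of these is protein coding, and the largest share, 67.3%, is with the pseudogene Rpl3-ps1.

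Rpl12 (chr2:32961559-32965345, plus strand) had 3.94, 5.40 and 7.38 TPM in wild type and 11.1, 10.7 and 13.3 TPM in knockout. The groups did not overlap. The log2 fold change was 0.98 (SE 0.19, limma adjusted p = 0.00236), and 0.60 after trimmed-mean rescaling (limma, adjusted p = 0.0295). Rpl12 shares 49.8% of its words with Gm10275, which is not protein coding. Their levels were not summed, so the value of Rpl12 alone is uncertain. Rpl10, which joins the large subunit in the last steps of its assembly (chrX:74270812-74273135, plus strand), stood at 65.1, 54.2 and 70.5 TPM in wild type and at 136, 103 and 117 TPM in knockout, again without overlap. Its log2 fold change was 0.89 (SE 0.16, limma adjusted p = 0.00149), and 0.47 after rescaling (limma, adjusted p = 0.00795). The highest adjusted p over the alternatives was 0.0428 for Rpl12 and 0.0447 for Rpl10. Rpl10 shares 75.8% of its words with other genes, chiefly the retrogene Rpl10-ps3, whose values were 290, 327 and 448 TPM in wild type and 646, 378 and 458 TPM in knockout and did not pass (limma, adjusted p = 0.108). Their sum was 418 ± 88.1 TPM in wild type, against 613 ± 154 TPM in knockout (SD, n = 3 each), a difference of 0.54 on the log2 scale and close to the family median, so the value of Rpl10 alone is uncertain.

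Next in size came 2 genes of the large subunit. Rpl13a stood at 703, 965 and 1027 TPM in wild type and 1760, 1237 and 1667 TPM in knockout, without overlap, and rose by 0.79 on the log2 scale (SE 0.20, limma adjusted p = 0.00873). It did not pass after trimmed-mean rescaling (limma, adjusted p = 0.132). Rpl11, which with Rpl5 and the 5S ribosomal RNA can bind the p53 regulator Mdm2, stood at 168, 157 and 218 TPM in wild type and 366, 242 and 283 TPM in knockout and rose by 0.71 (SE 0.19, limma adjusted p = 0.0128). That call was lost when wild-type library 2 (0.0616) or knockout library 1 (0.0516) was left out, and after rescaling (0.122). Rpl5 had among the smallest fold changes of the family at 0.25, with 21.6, 23.8 and 26.3 TPM in wild type and 31.1, 27.5 and 26.9 TPM in knockout, and did not pass (limma, adjusted p = 0.177).

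**Figure D3:**
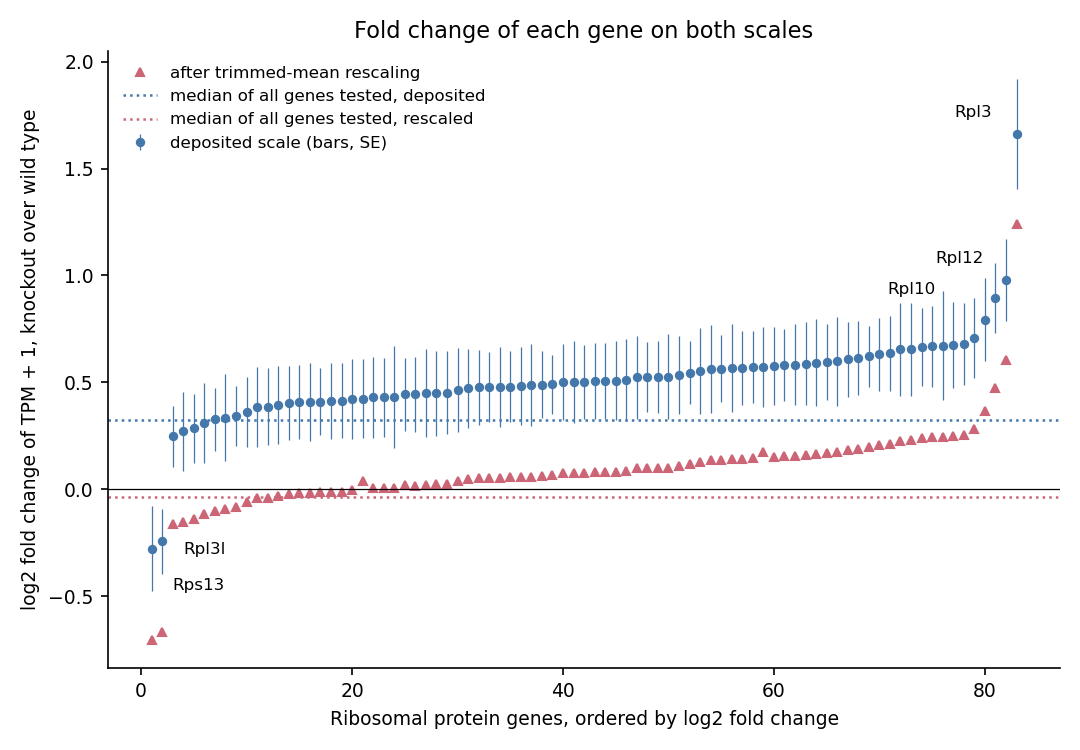
Log2 fold change of TPM + 1, knockout over wild type, for the 83 genes in order, on the deposited scale (circles, with SE as bars) and after trimmed-mean rescaling (triangles); dotted lines mark the median of all genes tested on each scale. Most genes lie on a shallow slope around the median of 0.50 (0.08 after rescaling), with Rpl3 at 1.66 at the upper end and Rps13 at -0.28 and Rpl3l at -0.24 at the lower end.

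The genes at the lower end were Rps13 and Rpl3l. Rps13, a small-subunit protein at the interface between the subunits (chr7:116331505-116334195, minus strand), stood at 493, 407 and 661 TPM in wild type and 504, 378 and 389 TPM in knockout. The groups overlapped, and wild-type library 3 was the highest. Its log2 fold change was -0.28 (SE 0.20, limma adjusted p = 0.265) on the deposited scale, where it did not pass, and -0.70 after trimmed-mean rescaling, where it did (limma, adjusted p = 0.00682). It also passed on the nuclear scale (-0.48, limma adjusted p = 0.0354). Of its words, 41.4% recur in other genes. Rpl30, another gene of small fold change (0.28), did not pass.

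Rpl3l (chr17:24727820-24736143, plus strand) stood at 210, 218 and 260 TPM in wild type and 194, 209 and 176 TPM in knockout. All knockout values were below all wild-type values, though knockout library 2 and wild-type library 1 nearly met. The log2 fold change was -0.24 (SE 0.15, limma adjusted p = 0.203), which did not pass, and -0.67 after trimmed-mean rescaling, which did (limma, adjusted p = 0.00412). It passed on the nuclear scale as well (-0.44, limma adjusted p = 0.0210).

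The balance within the Rpl3 pair does not depend on the scale of a library. Rpl3l made up 85.5, 83.5 and 84.5% of the summed TPM of Rpl3 and Rpl3l in wild-type libraries 1, 2 and 3, and 48.1, 70.2 and 57.4% in knockout libraries 1, 2 and 3. The wild-type values lay within a few points of each other and the knockout values were spread widely below them. The mean share was 84.5 ± 1.04% in wild type and 58.6 ± 11.1% in knockout (SD, n = 3 each), a difference of -26.0 percentage points, and the log2 ratio of Rpl3l to Rpl3 changed by -1.93. An exact permutation test over the 6 libraries gave a two-sided p of 0.1, the smallest that 3 against 3 allows, and 0.5 after Benjamini-Hochberg adjustment over the 5 paralog pairs. Leaving out 1 library at a time, the difference ran from -31.8 to -20.7 points. Because the 2 genes share none of their 1660 and 1612 words of 31 bases, their reads are separable from each other by sequence. Of the words of Rpl3, however, 69.7% recur in other genes, and none of those of Rpl3l do. How reads of such stretches were assigned is not given, so the size of the share is uncertain. The sum of both genes was 271 ± 32.0 TPM in wild type, against 336 ± 58.3 TPM in knockout (SD, n = 3 each), a smaller difference than that of Rpl3 alone.

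**Figure D4:**
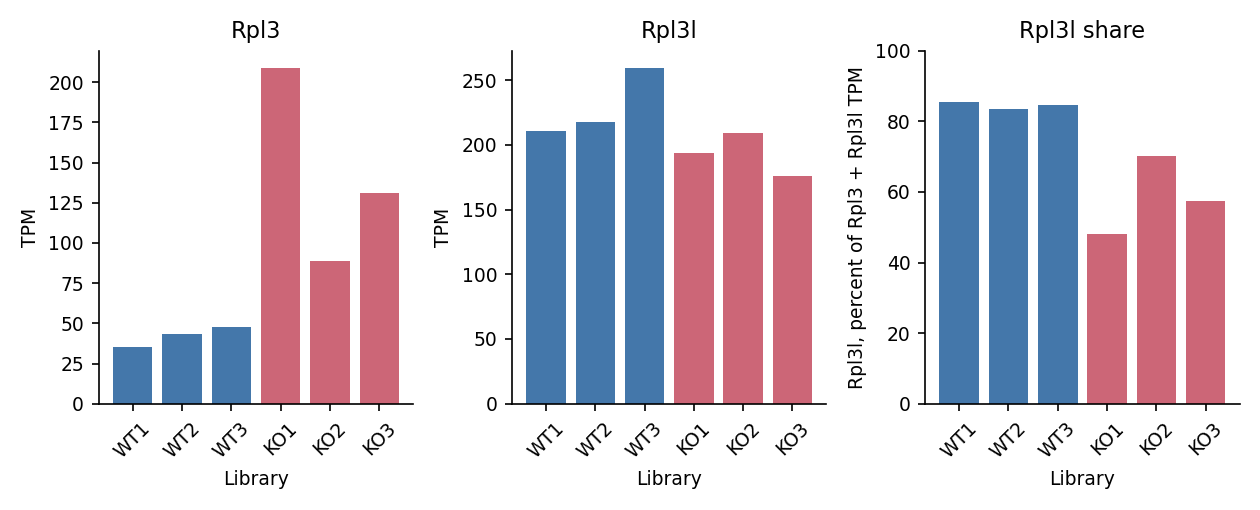
Rpl3 (TPM, left), Rpl3l (TPM, middle) and the share of Rpl3l in their sum (percent, right) in each of the 6 libraries, wild type in blue and knockout in red. Rpl3 is at 35.6 to 47.6 TPM in wild type, against 88.7 to 209 TPM in knockout, and the share of Rpl3l is 83.5 to 85.5% against 48.1 to 70.2%.

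The groups overlapped in the other 4 pairs. Rpl7l1, a nucleolar relative of Rpl7, made up 4.61 ± 0.489% of its pair in wild type and 4.73 ± 0.536% in knockout (SD, n = 3 each; exact permutation test, two-sided p = 1.0). Rpl22l1, which can replace Rpl22, made up 19.3 ± 1.97% and 16.6 ± 2.76% (exact p = 0.3), Rpl36al, nearly identical to Rpl36a in protein, 47.3 ± 2.16% and 45.3 ± 4.46% (exact p = 0.6), and Rps27l, a p53 target, 12.8 ± 0.729% and 11.2 ± 1.21% (exact p = 0.2), with n = 3 in each group. With 3 against 3 these tests could not reach 0.05, and they do not show that the shares were equal. Rps27, the abundant member of its pair, stood at 703, 827 and 1063 TPM in wild type and 1500, 1076 and 1557 TPM in knockout. It rose by 0.67 on the log2 scale (SE 0.20, limma adjusted p = 0.0209), a call that was lost without wild-type library 1 (0.079), wild-type library 2 (0.0685), knockout library 1 (0.078) or knockout library 3 (0.0796), and after trimmed-mean rescaling (0.285).

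The stalk proteins, which recruit the elongation factors to the large subunit, did not pass on the deposited scale. Rplp0, which anchors the stalk, stood at 471, 423 and 567 TPM in wild type and 812, 528 and 638 TPM in knockout, with knockout library 2 below wild-type library 3 (log2 fold change 0.42, limma adjusted p = 0.0907). Rplp1 had a log2 fold change of 0.39 (limma, adjusted p = 0.104) and Rplp2 of 0.51 (limma, adjusted p = 0.0544). Their values lay below or near the family median of 0.50, and the groups overlapped for all of them.

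In the small subunit, Rps6, the substrate of the S6 kinases downstream of mTORC1, stood at 246, 288 and 401 TPM in wild type and 549, 374 and 450 TPM in knockout, with overlap. It passed narrowly on the deposited scale (log2 fold change 0.57, limma adjusted p = 0.0467), and not without wild-type library 1 (0.17), wild-type library 2 (0.135), knockout library 1 (0.169) or knockout library 3 (0.0939), nor after rescaling (0.534). Rpsa, also known as the laminin receptor, had a log2 fold change of 0.40 and did not pass (limma, adjusted p = 0.0846), though its groups did not overlap (243 to 299 TPM against 312 to 445 TPM). The abundant Rps29 (0.33, limma adjusted p = 0.0981) and Rps24 (0.44, limma adjusted p = 0.0613) did not pass either.

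Outside the symbols used, Fau and Rack1 encode proteins of the same ribosome. Fau, a ubiquitin-like fusion of eS30, stood at 193, 203 and 258 TPM in wild type and 390, 291 and 342 TPM in knockout and rose by 0.64 (SE 0.17, limma adjusted p = 0.0124), a call lost without wild-type library 1 (0.0525) or wild-type library 2 (0.0557) and after trimmed-mean rescaling (0.157). Rack1, a scaffold on the small subunit, had a log2 fold change of 0.46 and did not pass (limma, adjusted p = 0.0552).

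Other genes of the protein synthesis machinery are given beside the 36.3% of all genes that were higher. Of 20 elongation and termination factors and other messages with a TOP start, 7 were higher, none was lower and 13 did not pass (median log2 fold change 0.32, near the 0.33 of all genes). Eef1a1, the elongation factor that brings aminoacyl-tRNA to the ribosome, stood at 205, 209 and 234 TPM in wild type and 680, 564 and 627 TPM in knockout and rose by 1.52 (SE 0.15, limma adjusted p = 2.32e-05). Its muscle and neuron paralog Eef1a2, named here after its values were seen, stood at 502, 463 and 560 TPM in wild type and 522, 493 and 556 TPM in knockout and did not pass (0.05, limma adjusted p = 0.813). After trimmed-mean rescaling Eef1a1 remained higher (1.10) and Eef1a2 was lower (-0.38, limma adjusted p = 0.0267). Vim, a mesenchymal intermediate filament gene with a TOP start and no role in translation, had 43.4, 43.5 and 48.1 TPM in wild type and 208, 285 and 217 TPM in knockout and rose by 2.36 (limma, adjusted p = 2.99e-06). Pabpc1, the poly(A)-binding protein, rose by 0.72 and Nap1l1, a histone chaperone, by 0.66, neither of which passed after rescaling.

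Of 38 translation initiation factors tested, 8 were higher and none lower (median 0.36), and after trimmed-mean rescaling none was higher and 1, Eif4g2, was lower. Those higher included the scaffold factor Eif4g3, which rose from 24.2 ± 1.49 to 39.1 ± 5.68 TPM, and Eif3g, a subunit of eIF3, which rose from 41.5 ± 3.27 to 64.2 ± 11.3 TPM (SD, n = 3 each; limma, adjusted p = 0.00602 and 0.0129, the second lost without wild-type library 1 at 0.0519). Of 49 genes of ribosomal RNA synthesis and ribosome assembly, 15 were higher and none lower (median 0.31), and 1 was higher and 6 lower after rescaling. The gene still higher was Myc, a transcription factor that drives ribosome production, at 1.02, 1.42 and 1.43 TPM in wild type and 3.57, 3.52 and 3.37 TPM in knockout, a rise of 0.98 (SE 0.14, limma adjusted p = 0.000267). Bop1, of the complex that processes the large-subunit RNA, rose from 6.53 ± 1.24 to 13.2 ± 4.75 TPM (SD, n = 3 each; limma, adjusted p = 0.0103, and 0.0726 after rescaling).

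Of 28 genes of mTORC1 and its regulators, 3 were higher and none lower (median 0.28), and after rescaling 1 was higher (Eif4ebp1) and 2 lower (Larp4 and Lamtor1). Eif4ebp1, the inhibitor of eIF4E that mTORC1 switches off, stood at 19.8, 22.1 and 23.9 TPM in wild type and 91.5, 60.6 and 91.9 TPM in knockout. The knockout values were all far above the wild-type ones, and the gene rose by 1.82 (SE 0.18, limma adjusted p = 2.64e-05), and by 1.41 after rescaling (limma, adjusted p = 0.000322). Pdcd4, an inhibitor of the helicase eIF4A, rose by 0.65 (limma, adjusted p = 0.00472). Mtor itself stood at 8.32 ± 0.770 TPM in wild type, against 9.27 ± 2.16 TPM in knockout (SD, n = 3 each) and did not pass.

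Markers of several cell types other than muscle fibres differed with the genotype. Their counts are to be read beside the 36.3% of all genes that were higher and the 2.92% that were lower. Of 15 macrophage and monocyte genes, 14 were tested and all 14 were higher in knockout, their summed level being 46.6 to 54.2 TPM in wild type and 245 to 300 TPM in knockout. The fibroblast and fibro-adipogenic list gave 12 of 12 higher (summed level 462 to 492 TPM against 1301 to 1362 TPM). Of 10 endothelial genes, 9 were higher and Kdr was lower. The summed level of the endothelial list was 154 to 179 TPM in wild type and 292 to 341 TPM in knockout. Of 10 satellite cell and regenerating fibre genes, 6 were tested and 5 were higher, with sums of 827 to 973 TPM against 1373 to 2125 TPM. Most of these sums was Des, which mature fibres also express, so they are not a level of satellite cells alone. The 1 lymphocyte gene tested of 10, Ptprc, was higher, none of 5 erythroid genes passed, and 1 of 14 muscle fibre genes, Myh4, was higher. After trimmed-mean rescaling 13.4% of all genes were higher and 15.4% lower. On that scale 14 macrophage, 10 fibroblast, 7 endothelial, 4 satellite cell and the 1 lymphocyte gene were higher, and 1 endothelial gene was lower. Of the muscle fibre genes, 1 was higher and 2 were lower there. No marker was at 0 in all libraries, and the part of these cells in the values of the ribosomal protein genes was not tested.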

How the data were processed

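The authors deposited 1 table per sample, with a value per gene that was read as TPM from its range and totals; the labels do not name the unit. Per the submitters' processing notes, GRCm38 and mm10 were the builds and STAR 2.5.3a and kallisto 0.43.0 the tools, with the step of each not stated. RNA was isolated with TRIzol and libraries made with a NEBNext Ultra kit, per the labels' protocols. Depth is unknown, so no counting error can be given.

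Samples were grouped by the labels, and copies in both muscles were counted once. Genes missing from a table were set to 0. Genes reaching 1 TPM in 3 or more libraries (11056) were fitted on log2(TPM + 1) by genotype with limma 3.58.1 (intensity trend, R 4.3.3), with Benjamini-Hochberg adjustment over all of them at 0.05. The pseudocount understates changes of low genes. Shares of paralogs were tested with exact permutation tests in scipy 1.17.1. The members, lists, tests and named genes were chosen with earlier results of these data known. Named genes were the 5 largest and 5 smallest fold changes, the 5 highest means, paralog pairs, Rplp0, Rplp1, Rplp2, Rpsa, Rps6, Fau, Rack1 and, from each list, the 4 passing genes of smallest adjusted p. Some genes that this rule named are not reported here.

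The alternatives changed 1 choice each: the trend dropped, quantile normalization, an unweighted trimmed mean as the scale (30% of ratios and 5% of levels cut), a nuclear scale, no filter or one of 10 TPM, a pseudocount of 0.1 or 5, the replicate block, a minimum log2 fold change of 1, and every library omitted in turn. Rescaling to the ribosomal protein genes was added after seeing the data. Positions and 31-base words come from GENCODE for GRCm38. On simulated data for this comparison (11056 genes, independent noise), 77% of 100 genes with a log2 change of 1 and 98% of 100 with a change of 2 were recovered, and 6 unchanged genes were called. The 200 changed genes were drawn from those above the median wild-type level, with as many lowered as raised. In the data far more genes were higher than lower and genes shifted together, so these rates do not carry over to the calls above.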

Additional observations from a re-analysis of the deposited data

How the results depend on the processing

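The number of the 83 genes called higher, 45 on the deposited scale, was 3 after trimmed-mean rescaling, 22 on the nuclear scale, 3 after rescaling to the ribosomal protein genes, 17 with no filter and 1 with a log2 fold change of at least 1. The number lower, 0, was 1 after quantile normalization and 2 after trimmed-mean rescaling, on the nuclear scale and after rescaling to the ribosomal protein genes. Their median log2 fold change was 0.077 after trimmed-mean rescaling and -0.039 after rescaling to the ribosomal protein genes, which sets these genes equal by construction, and the ratio of summed TPM was 1.05 after trimmed-mean rescaling. Leaving out 1 library gave 6 to 69 of the 83 genes higher, where 22.5 to 38.8% of all genes tested were.

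In the translation factor list the number higher was 2 after trimmed-mean rescaling, 4 on the nuclear scale, 2 on the ribosomal protein scale and 2 with the fold limit, with 2 lower on the trimmed-mean and ribosomal protein scales, and 3 to 8 higher without 1 library. In the initiation list the number higher was 5 with the replicate block, 1 after quantile normalization, 0 on the trimmed-mean and ribosomal protein scales and with the fold limit, 3 on the nuclear scale, 5 with no filter and 1 to 15 without 1 library, with 1 and 5 lower on the trimmed-mean and ribosomal protein scales. In the assembly list the number higher was 1 after quantile normalization and on the trimmed-mean and ribosomal protein scales, 6 on the nuclear scale, 5 with no filter, 0 with the fold limit and 4 to 20 without 1 library, with 4, 6 and 8 lower after quantile normalization and on the trimmed-mean and ribosomal protein scales. In the mTORC1 list the number higher was 1 after quantile normalization, on the trimmed-mean and ribosomal protein scales and with the fold limit, and 2 to 9 without 1 library, with 1, 2, 1 and 6 lower after quantile normalization and on the trimmed-mean, nuclear and ribosomal protein scales. On the ribosomal protein scale Rps4x (-0.042), Eif4e3 (-0.021), Eif3k (-0.0096) and Akt1s1 (-0.085) changed sign. The cause of these changes was not tested.

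Same-numbered libraries had correlations of deviations of 0.028, -0.0081 and 0.037, against -0.135 to 0.098 for libraries of different number. With 3 libraries per group, these values cannot decide whether the replicate numbers pair the libraries. With the replicate block 46 of the 83 genes were higher, 42 of them also higher without it.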
